A study of Homo sapiens with 4 samples.

Results

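The genes described here are 40 genes that act in G2 and mitosis, from the CDK1 kinase and its cyclins to kinesins and cytokinesis factors. They were taken by gene symbol from a table of 23143 genes, where all 40 were found, and all 40 were among the 12504 genes tested. The RNA came from A549, a human lung adenocarcinoma line, in the form the design text calls A549i. Polyadenylated RNA was sequenced from 2 vehicle-treated samples (noDOX), where GATA4 was normal, and 2 doxycycline-treated samples (DOX), where it was overexpressed. The labels name no clone, dose or time. They do not say whether replicates were separate cultures, so the p-values reflect only how much these samples differ, and that may be technical. Cells given doxycycline but carrying no inducible GATA4 were not analysed here. Values are FPKM, read counts scaled to transcript length and library size, and the read depth behind them is unknown.

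GATA4, the induced transcription factor, was at 12.2 and 14.5 FPKM in noDOX libraries 1 and 2 and at 74.98 and 48.0 FPKM in DOX libraries 1 and 2, so the groups did not overlap. The log2 difference was 2.09 (SE 0.30; limma, adjusted p = 0.289). In each library 11974 to 12622 genes were at 1 FPKM or more, and small RNA genes held 34.8 to 41.9% of the FPKM sum. All 9 A549 epithelial markers were at 1 FPKM or more in every library, and CDKN2A and CDKN2B, deleted in A549, were listed at 0 throughout. Endothelial markers summed to at most 0.207 FPKM in any library, fibroblast markers to 2.25 to 9.83 FPKM and blood markers to 3.02 to 16.5 FPKM, with CD3E and DCN listed at 0. The highest blood marker value was 15.9 FPKM, for CD14 in DOX 2. The part of these levels in the results below was not tested.

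Cells enter mitosis when cyclin B binds CDK1 and CDC25 phosphatases remove the inhibitory phosphates on it. The spindle checkpoint then holds the anaphase-promoting complex, which works with CDC20 and UBE2C, until every kinetochore is attached. The genes are transcribed late in the cell cycle, driven by B-MYB (gene MYBL2) and FOXM1 on the MuvB complex, and are repressed by the DREAM complex in resting cells and after p21 is induced. In bulk RNA, fewer dividing cells and less of a transcript in each cell cannot be told apart.

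MuvB binds the cell cycle homology region, TTTGAA, through LIN54, and NF-Y binds CCAAT boxes. RefSeq promoter windows (GRCh38.p14, 250 bases before to 50 after a gene's start) were matched by symbol for 33 of the 40 genes. TTTGAA stood on either strand in a window of 23 of the 33 (69.7%), against 18.2% of 27305 genes. CCAAT stood in 27 of the 33 (81.8%, against 39.7%), and both in 19 (57.6%, against 7.26%). The 27305 are all genes with such a window and were not limited to tested genes. A gene can have several windows. Of the 43 windows of the 33 genes, 26 held TTTGAA and 32 CCAAT, against 15.2% and 34.6% of all 35116. A match is a run of letters and not a measured binding site. The 250 bases before the start of 4 genes are shown, 5′ to 3′ on the gene's strand, because CCNB2, PLK1 and CCNB1 have the most common order of libraries below (25 of 40 genes) and MKI67 a rare one (2 of 40). TTTGAA and CCAAT are in capitals, with their reverse complements TTCAAA and ATTGG.
CCNB2 (chr15:59104896-59105145, plus strand): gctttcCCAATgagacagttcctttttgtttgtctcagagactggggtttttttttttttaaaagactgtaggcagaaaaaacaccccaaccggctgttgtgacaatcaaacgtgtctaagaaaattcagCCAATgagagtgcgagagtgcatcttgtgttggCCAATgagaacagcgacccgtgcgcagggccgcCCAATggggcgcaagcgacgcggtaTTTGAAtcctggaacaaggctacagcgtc
PLK1 (chr16:23678639-23678888, plus strand): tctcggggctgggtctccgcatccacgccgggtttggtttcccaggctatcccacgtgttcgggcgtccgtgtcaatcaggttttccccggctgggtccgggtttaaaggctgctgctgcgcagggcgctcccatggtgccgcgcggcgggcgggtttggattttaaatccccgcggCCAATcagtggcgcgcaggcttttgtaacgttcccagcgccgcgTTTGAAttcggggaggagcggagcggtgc
MKI67 (chr10:128126424-128126673, minus strand): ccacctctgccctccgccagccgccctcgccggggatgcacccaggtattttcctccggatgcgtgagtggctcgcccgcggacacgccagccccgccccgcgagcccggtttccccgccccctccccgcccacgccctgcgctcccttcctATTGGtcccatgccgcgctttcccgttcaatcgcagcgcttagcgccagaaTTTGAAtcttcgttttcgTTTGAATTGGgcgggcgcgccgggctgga
CCNB1 (chr5:69166900-69167149, plus strand): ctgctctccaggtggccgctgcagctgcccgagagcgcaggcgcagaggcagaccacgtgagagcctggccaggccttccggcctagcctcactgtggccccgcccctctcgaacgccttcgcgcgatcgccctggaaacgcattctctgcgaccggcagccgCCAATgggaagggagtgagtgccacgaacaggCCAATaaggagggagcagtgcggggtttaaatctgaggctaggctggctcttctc
TTTGAA began at -29 in CCNB2, at -29 in PLK1 and at -47 and -29 in MKI67, with the first base of the gene as 0. The second of these in MKI67 overlaps an ATTGG by 1 base. The CCNB1 window held CCAAT but no TTTGAA.

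None of the 40 genes differed past the threshold between DOX and noDOX libraries. On log2(FPKM + 1), with limma and Benjamini-Hochberg adjustment over all tested genes, 0 were lower and 0 were higher, against 0.064% and 0.024% of all genes, and the smallest adjusted p was 0.843. At an unadjusted p under 0.05 the counts were also 0, against 3.52% of all genes lower and 2.82% higher. The mean log2 value was lower with doxycycline in 35 of the 40 (56.1% of all genes), and the median log2 difference was -0.22, against -0.04 over all genes. In 2 genes the DOX libraries both lay under the noDOX libraries, ECT2 and CDC25B (17.3% of all genes), and in 3 they both lay over them, MKI67, ANLN and FOXM1 (14.7%). The groups overlapped in the other 35. The sign of the median rested on single libraries: it was -0.60 without DOX 2, -0.42 without noDOX 2, 0.03 without noDOX 1 and 0.20 without DOX 1. With DOX 1 left out 5 of the 40 had lower means, and with DOX 2 left out 37 did. A p that misses the threshold does not show that the groups were alike. Standard errors ran from 0.20 for MKI67 to 0.60 for CCNB1 on the log2 scale.

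**Figure D1:**
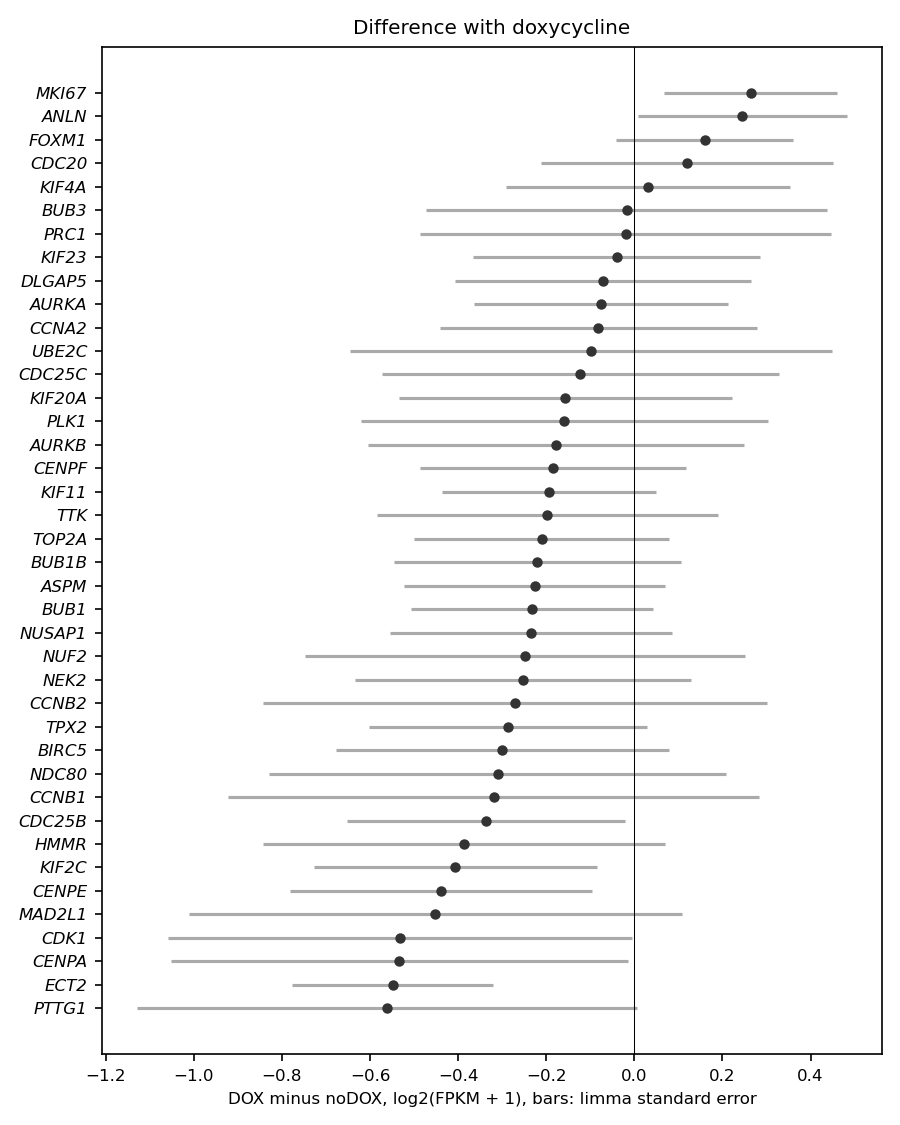
Log2 difference of DOX minus noDOX, on log2(FPKM + 1), for the 40 G2/M and mitosis genes in order of size, with limma standard errors from 2 libraries a group. It runs from -0.56 for PTTG1 to 0.26 for MKI67, and none passed the threshold.

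Libraries of the same group differed in these genes. All 40 were higher in DOX 2 than in DOX 1 (51.6% of all genes), and 37 were higher in noDOX 1 than in noDOX 2 (51.2%). DOX 1 was the lowest of the 4 libraries for 37 of the 40 (32.1% of all genes). In 35 of the 40, noDOX 1 and DOX 2 both lay above noDOX 2 and DOX 1 (33% of all genes). The reverse held in 26.9% of all genes, so this split of libraries was not limited to the 40. Over all tested genes, noDOX 1 minus noDOX 2 correlated with DOX 1 minus DOX 2 at -0.35, and at -0.76 without small RNA genes. The median log2 difference was 0.75 for DOX 2 minus DOX 1 and 0.47 for noDOX 1 minus noDOX 2, against 0.02 and 0.02 over all genes. These are differences between single libraries and have no test. The median of the 40 was 35.1 and 24.5 FPKM in noDOX 1 and 2, and 21.7 and 31.6 FPKM in DOX 1 and 2. GATA4 was at 74.98 FPKM in DOX 1, where most of them were lowest, and at 48.0 FPKM in DOX 2. Each value is from 1 library, and a link between GATA4 level and the 40 was not tested.

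**Figure D2:**
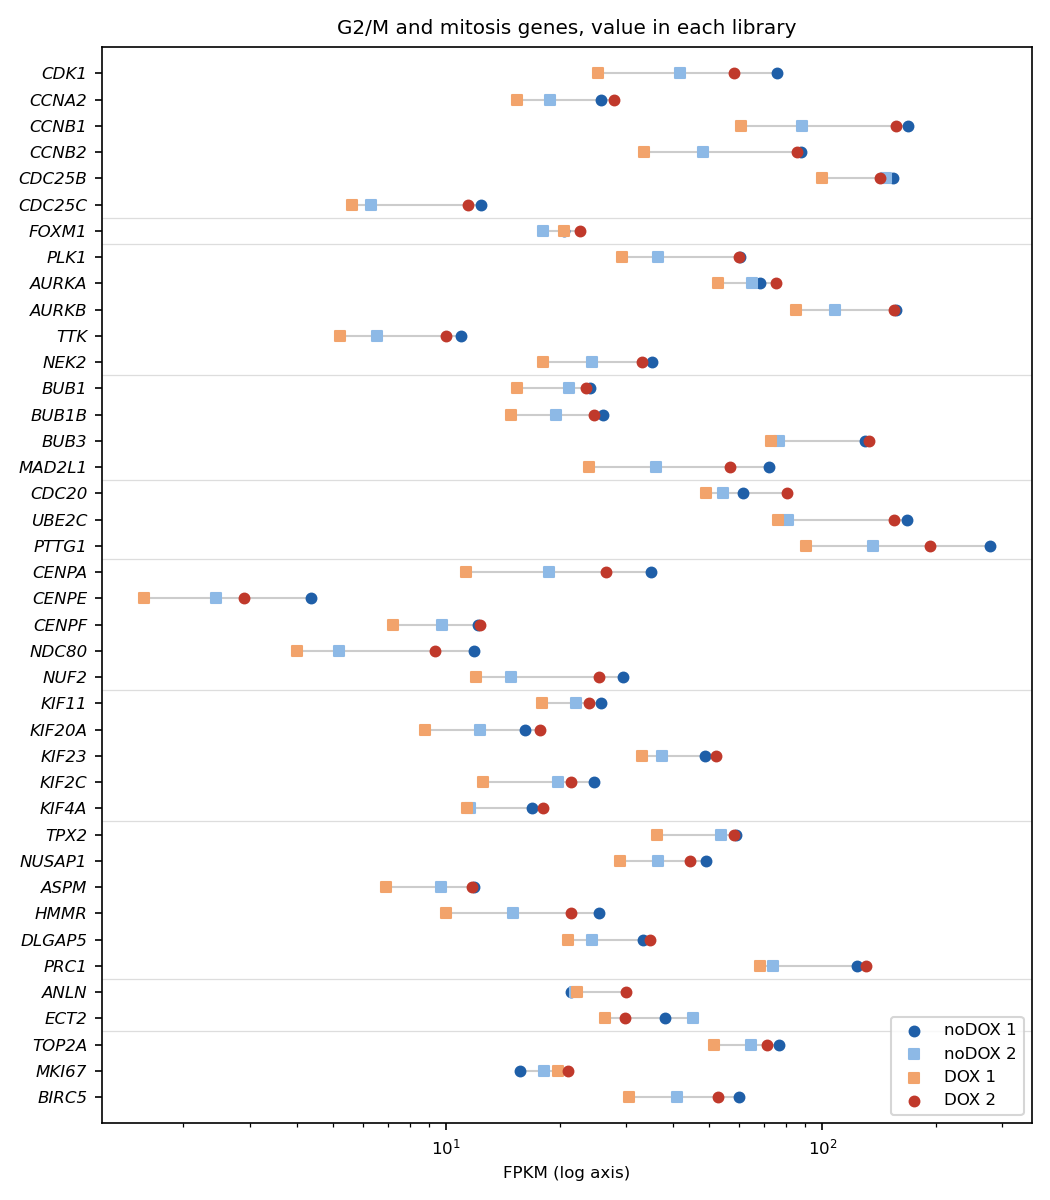
FPKM (log axis) of each gene in the 4 libraries, grouped by role, with grey lines from the lowest to the highest library. Circles (noDOX 1, DOX 2) lie to the right of squares (noDOX 2, DOX 1) in 35 of 40 genes, and where values nearly coincide, as for FOXM1 in noDOX 1 and DOX 1, one mark hides another.

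**Figure D3:**
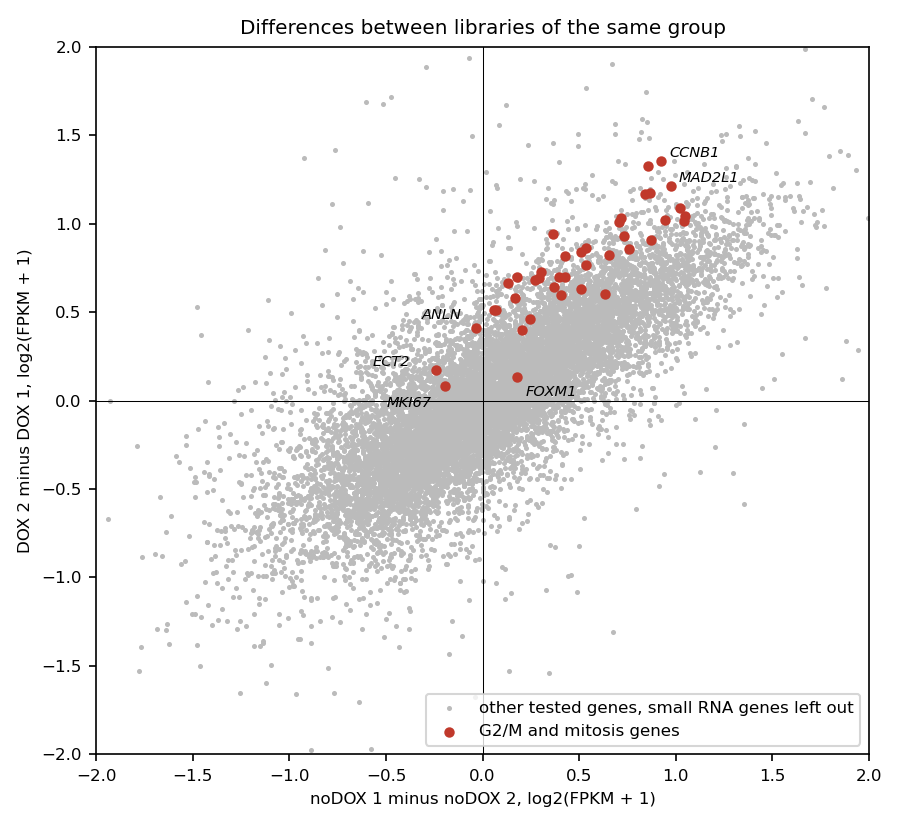
Difference between the 2 DOX libraries (vertical) against that between the 2 noDOX libraries (horizontal), on log2(FPKM + 1), for the 40 genes in red and tested genes other than small RNA genes in grey. All 40 lie above the horizontal zero line, small RNA genes are not drawn, and 37 of the other genes fall outside the plotted range of -2 to 2.

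CDK1 and its cyclins had some of the widest spreads. CDK1, the kinase that drives entry into mitosis, was at 75.5 and 41.7 FPKM in noDOX 1 and 2 and at 25.4 and 58.3 FPKM in DOX 1 and 2. Its means were 58.6 ± 23.9 and 41.8 ± 23.3 FPKM (SD, n = 2 each), a log2 difference of -0.53 (SE 0.53; limma, adjusted p = 0.999). CCNB1, which encodes cyclin B1, was at 169 and 88.4 FPKM without and at 60.7 and 157 FPKM with doxycycline. Its DOX 2 value was 2.59 times its DOX 1 value, the highest such ratio of the 40, while its group means were 129 ± 57 and 109 ± 68 FPKM. The log2 difference was -0.32 (SE 0.60; limma, adjusted p = 0.999). CCNB2, cyclin B2, followed the same order, at 87.9, 48.1, 33.6 and 85.7 FPKM in noDOX 1, noDOX 2, DOX 1 and DOX 2. CCNA2, cyclin A2, was at 25.8, 18.9, 15.4 and 27.9 FPKM in the same libraries. CDC25C, a phosphatase that activates CDK1, was at 12.4 and 6.30 FPKM without and at 5.61 and 11.4 FPKM with doxycycline. In all of these the 2 groups overlapped. CDC25B, the phosphatase that starts CDK1 activation, was the exception, at 154 and 148 FPKM without and at 99.6 and 142 FPKM with doxycycline. The log2 difference of CDC25B was -0.34 (SE 0.32; limma, adjusted p = 0.999).

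In all 5 mitotic kinases noDOX 1 and DOX 2 were above the other libraries. PLK1, which acts at centrosomes and kinetochores, was at 60.5 and 36.6 FPKM in noDOX 1 and 2 and at 29.4 and 60.1 FPKM in DOX 1 and 2. Its log2 difference between groups was -0.16 (SE 0.46; limma, adjusted p = 0.999). AURKB, the kinase of the chromosomal passenger complex, was at 157, 108, 85.0 and 155 FPKM in noDOX 1, noDOX 2, DOX 1 and DOX 2. AURKA, the spindle pole kinase, spread less, at 68.2, 64.9, 52.6 and 75.4 FPKM. TTK, a checkpoint kinase, had 10.9, 6.56, 5.22 and 10.0002 FPKM, and NEK2, which separates centrosomes, had 35.2, 24.5, 18.0 and 33.1 FPKM. All 5 kinases were lowest in DOX 1.

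Among spindle checkpoint genes, MAD2L1, which encodes the CDC20 inhibitor MAD2, was at 71.9 and 36.1 FPKM in noDOX 1 and 2 and at 24.0 and 56.9 FPKM in DOX 1 and 2. BUB3, the adaptor that brings BUB proteins to kinetochores, was at 130, 76.6, 73.0 and 133 FPKM, so that its group means, 103 ± 38 and 103 ± 43 FPKM, were nearly equal. BUB1, a kinetochore kinase, was at 24.0, 21.2, 15.4 and 23.5 FPKM (log2 difference -0.23, SE 0.27; limma, adjusted p = 0.999). BUB1B, which encodes BUBR1, was at 26.0, 19.6, 14.9 and 24.8 FPKM. Of the partners of the anaphase-promoting complex, UBE2C, its ubiquitin-conjugating enzyme, was at 168, 81.0, 76.2 and 155 FPKM. CDC20, its activator, was highest in DOX 2, at 61.6, 54.4, 49.2 and 80.5 FPKM. PTTG1, which encodes securin, the inhibitor of separase, had the highest FPKM of the 40 in noDOX 1, at 279 FPKM, with 137 FPKM in noDOX 2 and 90.2 and 193 FPKM in DOX 1 and 2. It also had the lowest log2 difference of the 40, -0.56 (SE 0.57; limma, adjusted p = 0.999), with groups that overlapped, and -1.11 to -0.016 with 1 library left out. Its close copy PTTG2 was at most at 0.0711 FPKM and PTTG3P was listed at 0 in all 4 libraries.

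Centromere and kinetochore genes had noDOX 1 and DOX 2 above the others in 5 of 5. CENPA, the histone H3 variant of centromeres, was at 35.0 and 18.7 FPKM without and at 11.3 and 26.6 FPKM with doxycycline. That is a log2 difference of -0.53 for CENPA (SE 0.52; limma, adjusted p = 0.999). CENPE, a kinetochore motor and the lowest gene of the 40, was at 4.35 and 2.45 FPKM and at 1.57 and 2.91 FPKM (log2 difference -0.44, SE 0.34; limma, adjusted p = 0.999). NDC80 and NUF2, partners in the complex that grips microtubules, moved alike between libraries. NDC80 was at 11.8, 5.20, 4.01 and 9.32 FPKM in noDOX 1, noDOX 2, DOX 1 and DOX 2, and NUF2 was at 29.5, 14.8, 11.99 and 25.4 FPKM. CENPF, a large kinetochore protein, was at 12.2, 9.74, 7.23 and 12.3 FPKM.

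All 5 kinesins also had noDOX 1 and DOX 2 above the others. KIF2C, which depolymerises microtubules at centromeres, was at 24.7 and 19.8 FPKM without and at 12.5 and 21.4 FPKM with doxycycline (log2 difference -0.41, SE 0.32; limma, adjusted p = 0.999). KIF11, the bipolar spindle motor, spread least of the 5, at 25.7, 22.2, 17.9 and 24.0 FPKM. KIF20A and KIF23, motors of the central spindle, were at 16.1, 12.3, 8.77 and 17.8 FPKM and at 48.7, 37.5, 33.0 and 52.1 FPKM. KIF4A, a chromosome-bound motor, was at 16.9, 11.6, 11.3 and 18.1 FPKM. The 6 spindle and microtubule genes did the same. TPX2, an activator of AURKA, was at 59.1, 53.8, 36.4 and 58.2 FPKM, with a log2 difference of -0.29 (SE 0.32; limma, adjusted p = 0.999). HMMR, a spindle protein, was at 25.4, 15.04, 9.99 and 21.5 FPKM, with a log2 difference of -0.39 (SE 0.46; limma, adjusted p = 0.999). PRC1, which bundles central spindle microtubules, was at 124, 73.9, 68.0 and 131 FPKM. The others, NUSAP1, DLGAP5 and ASPM, were 1.53 to 1.70 times as high in DOX 2 as in DOX 1.

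Cytokinesis and chromosome genes hold 3 of the 5 genes whose groups did not overlap. ECT2, the exchange factor that activates RhoA for the cleavage furrow, was at 38.1 and 45.3 FPKM without and at 26.4 and 29.9 FPKM with doxycycline. Its means were 41.7 ± 5.1 and 28.2 ± 2.5 FPKM (SD, n = 2 each), and its log2 difference of -0.55 (SE 0.23) had the smallest p of the 40 but missed the threshold (limma, adjusted p = 0.843). Leaving out any 1 library gave -0.67 to -0.43. ANLN, which encodes the furrow scaffold anillin, was at 21.4 and 21.96 FPKM without and at 22.3 and 30.0 FPKM with doxycycline (log2 difference 0.25, SE 0.24; limma, adjusted p = 0.999). MKI67, the Ki-67 proliferation marker that coats mitotic chromosomes, was at 15.7 and 18.1 FPKM without and at 19.9 and 21.1 FPKM with doxycycline. Its means were 16.9 ± 1.7 and 20.5 ± 0.85 FPKM, a log2 difference of 0.26 (SE 0.20; limma, adjusted p = 0.996). It was the gene with the least difference between DOX libraries, and its noDOX libraries had the reverse of the usual order. TOP2A, topoisomerase II, was at 76.6, 64.4, 51.5 and 71.2 FPKM in noDOX 1, noDOX 2, DOX 1 and DOX 2 (log2 difference -0.21, SE 0.29; limma, adjusted p = 0.999). BIRC5, which encodes survivin of the passenger complex, was at 59.99, 41.1, 30.6 and 52.7 FPKM.

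The median of the 40 was also subtracted from log2 values in each library, so their median became 0 in every library. The median over genes of DOX 2 minus DOX 1 was then 0.23 for the 40, against -0.50 over all genes. That of noDOX 1 minus noDOX 2 was -0.035, against -0.49, and 20 of the 40 were higher in noDOX 1. In 17 of the 40, noDOX 1 and DOX 2 both lay above the other libraries (8.65% of all genes). The centring uses the members' own values, so it sets these values and those of all genes in part. Both DOX libraries lay above both noDOX libraries for CDC20, KIF4A and ANLN (3 of 40, against 12.2% of all genes centred the same way). They lay below for CENPE, KIF2C and BIRC5 (3 of 40, against 7.65%). On this scale MKI67 was at -1.11 and -0.41 in noDOX 1 and 2 and at -0.12 and -0.56 in DOX 1 and 2, so its groups overlapped, as did those of ECT2, FOXM1 and CDC25B. Of the 40, 0 passed in either direction, against 0.016% of all genes higher and 0.016% lower, and 0 had an unadjusted p under 0.05 (limma). In that centred fit 25 of the 40 had lower means (34.2% of all genes), a balance that the centring itself sets.

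Transcript length moved with the same split of libraries. Over all tested genes the median of DOX 2 minus DOX 1 went from 0.50 among the 10% of genes with the shortest coding transcripts (up to 1427 bases) to -0.31 among the 10% with the longest (from 7410 bases), and that of noDOX 1 minus noDOX 2 from 0.70 to -0.33. Of the 40 genes, the 20 with shorter transcripts had medians of 0.96 and 0.71, and the 20 with longer ones had 0.64 and 0.28. MKI67 had the longest transcript of the 40, at 12678 bases, and UBE2C the shortest, at 914 bases. With a smooth length trend removed from each library, noDOX 1 and DOX 2 were both higher in 34 of the 40 (27.7% of all genes). DOX 2 was above DOX 1 in 40 (48.4% of all genes) and noDOX 1 above noDOX 2 in 36 (47.8%), and the medians were 0.67 and 0.38, against -0.01 and -0.02 over all genes. On that scale ASPM and CENPF, with transcripts over 10 kilobases, were higher by 0.98 and 0.99 in DOX 2 than in DOX 1, and MKI67 by 0.40. Between groups 33 of the 40 had lower means on that scale (52% of all genes). None of the 40 passed there (limma, smallest adjusted p = 0.491, for ECT2), and 0 of 11396 genes did. At an unadjusted p under 0.05, 1 of the 40 was lower and 0 higher, against 4.05% and 4.56% of all genes.

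Scaling between libraries also bears on the order. With FPKM scaled to equal sums over genes other than small RNA genes, the all-gene medians moved to -0.32 for DOX 2 minus DOX 1 and -0.53 for noDOX 1 minus noDOX 2. The medians of the 40 became 0.36 and -0.15, still above those of all genes, and 37 (24% of all genes) and 16 (16.5%) of the 40 were higher in DOX 2 and in noDOX 1. Both were higher together in 15 of the 40 (9.27% of all genes). DOX 2 lay above DOX 1 for 37 or more of the 40 as deposited, with the length trend removed and with this scaling. The order of the noDOX libraries turned with this scaling but not with 3 others. With median-of-ratios scaling, upper quartile scaling and quantile normalization, the 40 had medians of 0.41, 0.26 and 0.31 for noDOX 1 minus noDOX 2. Over all genes these were -0.03, -0.16 and 0.01.

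Of the 15 MuvB, DREAM and NF-Y genes tested, 7 had noDOX 1 and DOX 2 above the other libraries, against 33% of all genes. Without overlap 4 lay above and 1 below in the DOX libraries, against 14.7% and 17.3% of all genes, and 0 passed in either direction. MYBL2, which encodes B-MYB, the activator that joins MuvB, was at 46.2 and 34.0 FPKM in noDOX 1 and 2 and at 122 and 119 FPKM in DOX 1 and 2. Both DOX values were far above both noDOX values and close to each other. Its mean went from 40.1 ± 8.6 to 121 ± 2.2 FPKM (SD, n = 2 each), a ratio of 3.01, and the log2 difference was 1.58 (SE 0.27). It missed the threshold over all genes (limma, adjusted p = 0.404), and over all alternatives the log2 difference ran from 1.37 to 1.80 and the adjusted p from 0.135 to 1. FOXM1, the forkhead activator of G2/M genes and 1 of the 40, was at 20.6 and 18.0 FPKM without and at 20.6 and 22.7 FPKM with doxycycline (log2 difference 0.16, SE 0.20; limma, adjusted p = 0.999). LIN54, the subunit that binds TTTGAA, was at 1.95 and 1.99 FPKM and at 2.96 and 2.68 FPKM. LIN52, another MuvB subunit, was at 3.796 and 3.90 FPKM and at 4.57 and 4.66 FPKM. NFYA, the DNA-binding subunit of NF-Y, was at 5.12 and 5.83 FPKM and at 8.31 and 7.62 FPKM (log2 difference 0.47, SE 0.18; limma, adjusted p = 0.780). E2F5, a repressor of the DREAM family, was at 11.9 and 10.6 FPKM without and at 7.84 and 8.36 FPKM with doxycycline (log2 difference -0.43, SE 0.18; limma, adjusted p = 0.832).

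**Figure D4:**
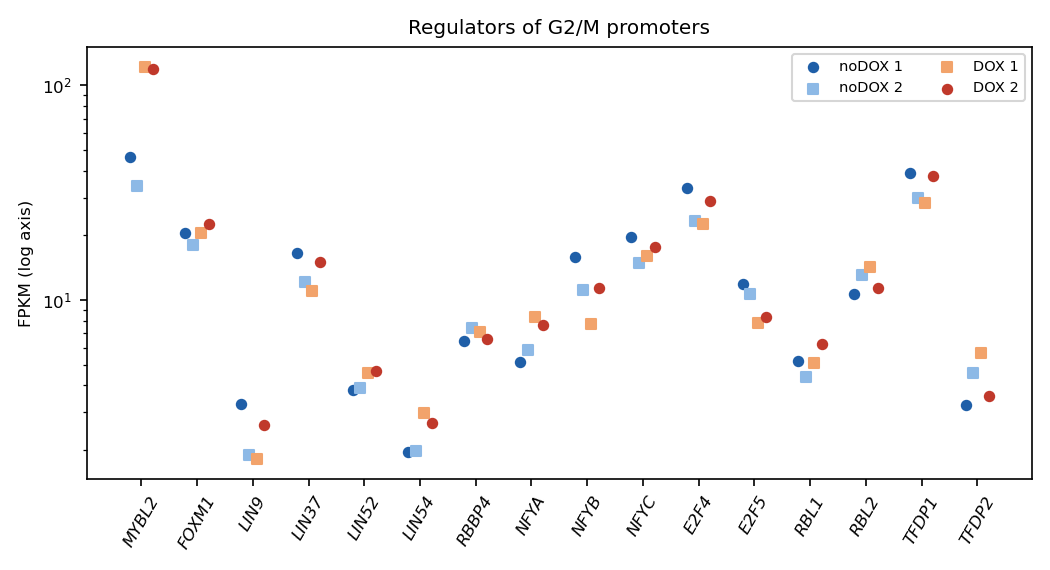
FPKM (log axis) of FOXM1 and of the 15 MuvB, DREAM and NF-Y genes in the 4 libraries. MYBL2 stands at 122 and 119 FPKM in the DOX libraries, above 46.2 and 34.0 FPKM in the noDOX libraries, while the other genes differ less between groups.

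CDKN1A, which encodes the CDK inhibitor p21, had the opposite split of libraries to most of the 40, and was singled out after its values were seen. It was at 68.6 and 153 FPKM in noDOX 1 and 2 and at 131 and 84.3 FPKM in DOX 1 and 2. So it was high in the libraries where the mitotic genes were low. It was highest in noDOX 2, while most of the 40 were lowest in DOX 1. Its groups overlapped, with means of 111 ± 60 and 108 ± 33 FPKM. A link between CDKN1A and the 40 was not tested. Of all tested genes 26.9% had noDOX 2 and DOX 1 both above noDOX 1 and DOX 2. Its longest coding transcript has 2267 bases. Among the 10% of genes in its length group (1934 to 2356 bases) the medians were 0.22 for DOX 2 minus DOX 1 and 0.23 for noDOX 1 minus noDOX 2. The part of transcript length in its values was not tested. WEE1, the kinase that inhibits CDK1, had the same order of libraries as CDKN1A. It was at 9.05, 14.3, 10.4 and 10.1 FPKM in noDOX 1, noDOX 2, DOX 1 and DOX 2. Of the MuvB, DREAM and NF-Y genes, RBBP4, RBL2 and TFDP2 also had noDOX 2 and DOX 1 above the other libraries. CHEK2, a DNA damage checkpoint kinase, was at 20.98 and 18.4 FPKM without and at 8.35 and 12.7 FPKM with doxycycline (log2 difference -0.87, SE 0.26; limma, adjusted p = 0.671). GADD45B, a stress-induced inhibitor of CDK1, was at 112, 50.9, 21.99 and 51.8 FPKM (log2 difference -1.13, SE 0.59; limma, adjusted p = 0.945). Of the 9 tested brakes of G2, GADD45B, SFN and CHEK1 (3 of 9, against 33% of all genes) had noDOX 1 and DOX 2 above the others. None of the 9 passed in either direction.

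Other mitotic genes, outside the 40, had a similar order of libraries. Of 55 tested, 54 were higher in DOX 2 than in DOX 1 (51.6% of all genes). In 51, noDOX 1 and DOX 2 lay above the others (33% of all genes), and the medians between libraries were 0.67 and 0.55. Between groups 37 had lower means (56.1% of all genes), the median log2 difference was -0.13 and 0 passed. The smallest p was that of CDCA2, a chromosome-bound partner of protein phosphatase 1, at 11.7 and 11.9 FPKM without and 6.41 and 10.4 FPKM with doxycycline. Next were SGOL2, a shugoshin that guards centromeric cohesin, and DEPDC1, with log2 differences of -0.47 and -0.39 (limma, adjusted p = 0.986 and 0.989). All 8 condensin genes were higher in DOX 2 than in DOX 1, but only 5 were higher in noDOX 1 than in noDOX 2. In 5 of the 8, noDOX 1 and DOX 2 lay above the others, and 7 had lower means with doxycycline. The 10 cohesin and separase genes had medians of 0.10 and 0.06 between libraries, and 4 had lower means. The 14 anaphase-promoting complex subunits had medians of 0.30 and 0.38, and 10 had lower means. No gene of these lists passed in either direction (limma, 0 calls).

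Reads of some of the 40 may be shared with other genes. In GENCODE release 29, 16 of the 40 share exon bases with another gene. For 8 of them, ANLN, CCNA2, CDC25C, FOXM1, KIF20A, KIF4A, NUF2 and PLK1, a partner is in the table and on the opposite strand. BUB1B, CENPA, NUSAP1 and PRC1 have a partner on the same strand, which was not found in the table under its release 29 symbol. The sources used here do not give the strand setting of the authors' counting. A pseudogene of the same name is annotated for 9, among them UBE2C, CCNB2, CDC20 and MKI67, and 0 of those pseudogenes are in the table. Values of these genes are uncertain to that extent.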

How the data were processed

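Polyadenylated RNA of 4 A549 libraries was sequenced. The authors deposited 1 table of FPKM with 1 column per library. Per the submitters' processing notes, TopHat2 2.0.10, Bowtie, Cufflinks 2.2.1 and Cuffdiff were used on hg19. Annotation, strand setting and scaling were not given in the sources used here. Read depth is unknown, and no counting interval could be computed.

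The 12504 genes whose mean over the libraries was 1 FPKM or more were tested on log2(FPKM + 1) with limma 3.58.1 in R 4.3.3 (2 group means, mean-variance trend, two-sided p, Benjamini-Hochberg adjustment, threshold 0.05, 2 residual degrees of freedom). A fold change on this scale understates the change of low genes. Exact permutation of 2 against 2 libraries cannot reach that threshold. The fit was tested on simulated data. Noise there was drawn separately for each gene and library, without the shared deviations of these libraries, so it does not bear on the p-values here. The members, lists and tests were chosen with earlier results of these data known. The rule gave statistics for the 12 members with the smallest p, for MKI67, TOP2A, CCNB1, CDK1, PLK1 and FOXM1, and for up to 3 genes of each other list.

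Small RNA genes were recognised by symbol (microRNA, snoRNA, snRNA, Y RNA, 7S RNA and scaRNA prefixes). Lengths came from GENCODE release 29 by symbol (91.1% of tested genes, all 40 members), with a lowess span of 0.3. Replicate numbers are shared by the groups, but deviations of same-numbered libraries correlated at -0.35 over genes (-0.76 without small RNA genes), so the numbers were not taken as pairs. No 2 libraries shared an identical value above 0 (0 genes).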

Additional observations from a re-analysis of the deposited data

How the results depend on the processing

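In every alternative 0 of the 40 genes passed. With the crossed pairing as a block 8 of the 40 were lower at an unadjusted p under 0.05 and 0 higher, against 11.5% and 9.4% of all genes, and the smallest adjusted p was 0.178 (limma). The alternatives on length, on the members' median, on equal FPKM sums and on crossed pairing were chosen after seeing the data. Leaving out 1 library moved the members' median log2 difference between -0.60 and 0.20 and the number with lower means between 5 and 37. It moved the genes called over the whole table to 4 to 31 higher and 19 to 59 lower, against 3 and 8. Ranges over the libraries left out spanned 0 for CCNB1 (-0.997 to 0.36), PLK1 (-0.66 to 0.35), CENPA (-1.12 to 0.053), CDK1 (-1.12 to 0.053), TPX2 (-0.62 to 0.045), HMMR (-0.90 to 0.13), BUB1 (-0.52 to 0.057) and TOP2A (-0.44 to 0.020). Without spanning 0, they were -1.11 to -0.016 for PTTG1, -0.77 to -0.042 for KIF2C, -0.59 to -0.080 for CDC25B, -0.76 to -0.12 for CENPE and -0.67 to -0.43 for ECT2. On the higher side they were 0.039 to 0.45 for ANLN, 0.17 to 0.36 for MKI67 and 0.070 to 0.25 for FOXM1. The cause was not tested.

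Genes called over the whole table were 5 higher with a pseudocount of 0.1, 5 lower with a pseudocount of 5, 0 higher and 1 lower with no filter, 6 higher with robust moderation, 1 higher and 0 lower without small RNA genes, and 0 and 0 with the length trend removed. They were 2 lower when centred on the members' median and 1 higher and 2 lower at equal FPKM sums. The replicate block called 30 higher and 35 lower genes, and the crossed pairing 2 higher and 5 lower. The members below without overlap numbered 4 with upper quartile scaling (14.7% of all genes) and 1 with quantile normalization (14.7%). At equal FPKM sums 1 lay below (9.72%) and 1 above (11.9%), and with the length trend removed 1 lay above (18.5%). The median of noDOX 2 minus noDOX 1, -0.47, was 0.035 when centred and 0.15 at equal sums, and that of DOX 2 minus DOX 1, 0.75, was 0.23 and 0.36. Centring turned PLK1 to 1.3e-04 and NCAPH2, a condensin subunit, to 0.012. The filter at 5 FPKM left out CENPE. Depth could not be assessed from FPKM.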

Other observations

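Genes of G1/S and DNA replication, the step before G2, also differed between libraries of the same group. Of 20 tested, 19 were higher in DOX 2 than in DOX 1 (51.6% of all genes). In noDOX 1, 17 were higher than in noDOX 2 (51.2% of all genes), and the medians of these differences were 0.41 and 0.34. In 14 of 20, noDOX 1 and DOX 2 both lay above the other libraries (33% of all genes), against 35 of the 40 mitotic genes. RRM2, the ribonucleotide reductase subunit made in S phase, was at 44.5 and 37.6 FPKM without and at 51.0 and 67.7 FPKM with doxycycline, a log2 difference of 0.51 (SE 0.27; limma, adjusted p = 0.947). E2F1, an activator of G1/S genes, was at 18.7 and 18.5 FPKM without and at 16.1 and 15.97 FPKM with doxycycline, with little spread inside either group. MCM3, a subunit of the replicative helicase, was at 47.3, 34.5, 27.6 and 37.2 FPKM in noDOX 1, noDOX 2, DOX 1 and DOX 2, the order of most mitotic genes. No gene of the list passed (limma, 0 calls in either direction).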
